A study of Mus musculus with 12 samples.

Results

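Trypsin-like serine proteases of the epithelial cell surface and the Kunitz inhibitors that hold them in check were followed through factor-driven reprogramming of mouse embryonic fibroblasts. The set was chosen by gene name: 7 of the 24207 genes of the count table, of which 5 encode proteases (St14, Prss8, Prss32, Prss22 and Tmprss2) and 2 encode inhibitors (Spint1 and Spint2). Expression was measured by RNA sequencing on day 7 in 12 libraries, in 4 groups of 3. All cells were C57BL/6 fibroblasts carrying the lentiviral constructs FUW-OSKM and FUW-M2rtTA, which let doxycycline switch on Oct4, Sox2, Klf4 and cMyc (OSKM), and all were grown on irradiated feeder fibroblasts in ES medium. The uninduced cells had a scrambled hairpin and no doxycycline. The induced controls had doxycycline and a scrambled hairpin, the Trim28 knockdown had doxycycline and a hairpin against Trim28, and the double knockdown had doxycycline and a hairpin for each of Trim28 and Setdb1. Zinc finger proteins bring the corepressor Trim28 to DNA, and its partner Setdb1 methylates lysine 9 of histone H3. Nothing in the labels makes the replicates separate cultures, so each p-value here reflects only how far these libraries spread, which may be technical. Whether feeder fibroblasts were removed before extraction is not stated either.

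In epithelia, matriptase (the product of St14) and prostasin (the product of Prss8) sit in the membrane and activate each other and other substrates by cutting after a basic residue. The Kunitz inhibitors HAI-1 (Spint1) and HAI-2 (Spint2) are themselves membrane proteins that bind and block these proteases, and the balance of protease and inhibitor is needed for epithelial barrier function. Prss32 encodes a trypsin-like serine protease, Prss22 encodes tryptase epsilon, which is known as a secreted protease of airway epithelium, and Tmprss2 encodes a transmembrane protease best known for cutting the surface proteins of respiratory viruses.

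The libraries held 11906701 to 19191649 counted reads, so that 3 reads in 1 library correspond to 0.156 to 0.252 CPM. CPM are reads per 1e+06 counted reads, scaled with TMM factors, and are given as mean ± SD over 3 libraries unless single libraries are named. Each hairpin target was lower with its hairpin than in the induced controls: Trim28 was at 58.4 ± 5.95 CPM in its knockdown and 103 ± 6.40 in the double knockdown, against 328 ± 38.3 in the controls. Setdb1 was at 122 ± 1.36, 63.1 ± 8.21 and 81.2 ± 4.26 CPM in the same groups. In the uninduced libraries Trim28 was at 249 ± 24.8 and Setdb1 at 60.7 ± 4.28 CPM, so Setdb1 with both hairpins was within the SD of the uninduced level and not below it. The double knockdown therefore had less Setdb1 and more Trim28 transcript than the Trim28 knockdown. As a check on cell type, the summed level of 7 epithelial markers (Epcam, Cdh1, Krt8, Krt18, Krt19, Cldn4 and Ocln) was 23.2 to 25.9 CPM in uninduced libraries, 1737 to 2197 in induced controls, 1719 to 1960 in the Trim28 knockdown and 995 to 1235 in the double knockdown. The summed level of 8 fibroblast markers (Col1a1, Col1a2, Col3a1, Thy1, Twist1, Twist2, Pdgfra and Pdgfrb) was 20600 to 24874 CPM in uninduced libraries. It stayed between 11434 and 21067 CPM in all induced libraries. That sum is mostly collagen: in induced controls Col1a1, Col1a2 and Col3a1 were at 7249, 5878 and 3769 CPM, and the others at 18.1 to 261.

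Levels of different genes are compared per length, as CPM per kilobase of exon. The length is the union of all annotated exons of a gene, from 1836 bases for Prss32 to 7637 for St14 among the 4 highest members. The order depends on that choice: by CPM alone the induced controls had St14 at 154, Spint2 at 86.2, Prss32 at 44.9 and Spint1 at 44.7. In induced controls 4 members lay close together, in the order Prss32 (24.4 ± 3.75), St14 (20.1 ± 2.35), Spint2 (18.9 ± 2.44) and Spint1 (16.1 ± 1.84). St14 and Spint2 differed by less than their SDs, and the other neighbours by little more than the larger SD. Prss8 stood far below them at 1.67 ± 0.399, followed by Prss22 at 0.247 ± 0.0601 and Tmprss2 at 0.0501 ± 0.00873 CPM per kilobase. In uninduced cells the order was another one: the inhibitor Spint2 led at 1.32 ± 0.144, ahead of St14 at 0.321 ± 0.0374 and Prss22 at 0.161 ± 0.0743. Prss32, the highest member per kilobase after induction, had no read in the uninduced libraries. With both hairpins the order was Prss32 (14.6 ± 3.40), Spint2 (13.9 ± 1.42) and St14 (12.1 ± 1.29), which differed by less than the larger SD from neighbour to neighbour or by slightly more, and then Spint1 (7.34 ± 1.09).

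**Figure D1:**
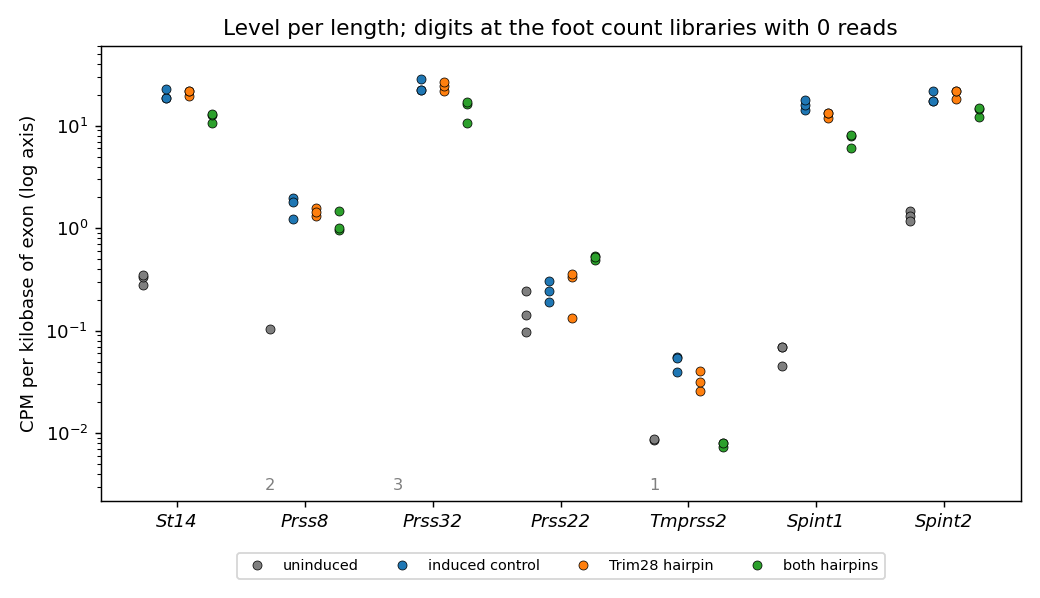
Level of each gene in each library as CPM per kilobase of exon, on a log axis, with a point per library coloured by group. Libraries with 0 reads cannot be drawn on this axis and are counted in digits at the foot (2 for Prss8, 3 for Prss32 and 1 for Tmprss2, all uninduced); Prss32, St14, Spint2 and Spint1 share the top of the plot in every induced group.

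For the test of each comparison, edgeR's quasi-likelihood test was run on 14520 genes that passed a low-count filter, and a change was called at a Benjamini-Hochberg adjusted p under 0.05. Of the 7 members 6 passed the filter. St14 and Spint2 exceeded its level of 0.600 CPM (before TMM scaling) in all 12 libraries. Prss8, Prss32 and Spint1 exceeded it in the induced libraries alone, Prss22 in the double knockdown alone, and Tmprss2 in no library. A count of members that rose with induction, or of Prss22 with both hairpins, is therefore partly set by the filter and is given as a description.

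Induced and uninduced cells with the scrambled hairpin were compared for the effect of 7 days of doxycycline. St14, Prss8, Prss32, Spint1 and Spint2 rose, Prss22 did not pass the test, and no member fell. Over all tested genes, 32.7% rose and 32.7% fell in this comparison.

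St14 (ENSMUSG00000031995, chromosome 9, 31089402 to 31131853, minus strand) had the most reads. It stood at 2.12, 2.57 and 2.65 CPM in the 3 uninduced libraries and at 144, 143 and 174 CPM in the induced controls. The groups lay far apart, and St14 rose by 5.97 ± 0.14 in log2 units (± SE derived from the edgeR fit to all 12 libraries, adjusted p = 2.57e-15), or 62.7-fold. Prss8 (ENSMUSG00000030800, chromosome 7, 127925725 to 127930113, minus strand) had 0, 3 and 0 reads in the uninduced libraries and 63, 28 and 67 reads in the induced controls. Every uninduced read came from replicate 2; without that library the fitted log2 change went from 5.47 to 8.72, against a group at 0 reads, and is no bound. The ratio of summed reads was 50.1-fold with a 95% counting interval of 16.8 to 245, and the edgeR adjusted p was 1.11e-07. Such counting intervals cover counting error only, since reads that carry no molecular identifier may be copies of the same molecule.

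Prss32 (ENSMUSG00000048992, chromosome 17, 23843855 to 23859776, plus strand) had 0 reads in each uninduced library. Induced controls held 706, 501 and 1056 reads, which is 41.2, 40.6 and 52.8 CPM. Against a floor of 3 reads over the uninduced group, or 0.0638 CPM, the level after induction was 717-fold higher (edgeR adjusted p = 1.65e-11). The lower 95% counting bound of the ratio was 583-fold. Prss22 (ENSMUSG00000045027, chromosome 17, 23993535 to 23998100, minus strand) had 3, 5 and 2 reads in uninduced libraries and 7, 4 and 5 in induced controls. These counts overlapped, the log2 change of 0.59 ± 0.51 did not pass the test (adjusted p = 0.351), and its 95% interval ran from -0.49 to 1.67. Tmprss2 (ENSMUSG00000000385, chromosome 16, 97564684 to 97611195, minus strand) had 1, 0 and 1 reads uninduced and 5, 5 and 8 in induced controls. The ratio of these sums was 8.56-fold with a 95% counting interval of 2.05 to 76.1. In a fit without the low-count filter Tmprss2 was called higher (adjusted p = 0.00437).

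Both inhibitors rose as well. Spint1 (ENSMUSG00000027315, chromosome 2, 119237362 to 119249527, plus strand) went from 0.125, 0.193 and 0.194 CPM, or 2, 3 and 3 reads, to 39.6, 44.5 and 49.8 CPM. Its log2 change was 7.98 ± 0.23 (edgeR adjusted p = 3e-14). That SE, derived from the test statistic, understates the counting error at 8 uninduced reads. The ratio of summed reads was 264-fold with a 95% counting interval of 134 to 613. Spint2 (ENSMUSG00000074227, chromosome 7, 29256331 to 29281977, minus strand) was the member with the highest uninduced level, at 6.68, 6.04 and 5.37 CPM, and reached 79.8, 79.8 and 99.1 CPM. It rose by 3.84 ± 0.13 (adjusted p = 2.91e-13), or 14.3-fold, against a fitted 252-fold for Spint1 on those 8 uninduced reads. Per kilobase, the inhibitor pair thus went from unequal to similar transcript levels. Spint2 was 16.8 to 32.5 times Spint1 in uninduced libraries, on 2 or 3 Spint1 reads each, and 1.09 to 1.22 times Spint1 in induced controls.

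All 7 epithelial markers rose in the same comparison, and 6 of 8 fibroblast markers fell. Of the markers of pluripotent cells 4 of 4 tested rose (summed level 0.187 to 0.647 CPM uninduced and 23.6 to 34.96 in induced controls), and of macrophage markers 2 of 2 tested rose (4.27 to 5.20 and 12.4 to 16.8 CPM). Among 3 tested markers each, 2 of stratified epithelium rose and none fell, and 1 of trophoblast rose and 1 fell. In RNA from whole cultures, more cells that express a gene cannot be told apart from more RNA per cell. Mast cells, the classical source of tryptases related to Prss22 and Prss32, were read from their own markers: 6 of 7 listed mast cell markers were in the table, their sum was at most 0.993 CPM in any library, and Tpsab1 and Tpsb2 had 0 reads in uninduced cells and induced controls.

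**Figure D2:**
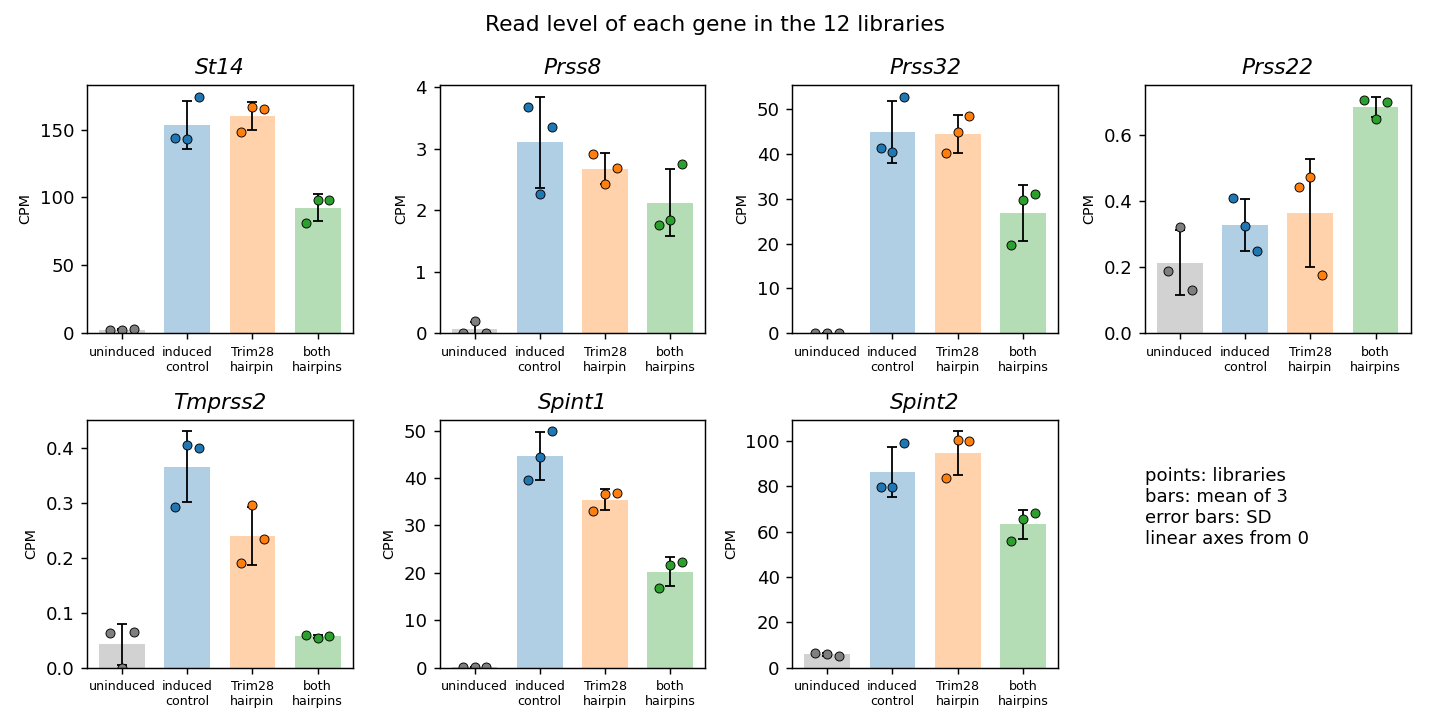
CPM of each of the 7 genes in the 12 libraries on linear axes that start at 0 and differ between panels, with a point per library, bars for the mean of 3 and error bars for the SD. St14, Prss32, Spint1 and Spint2 have their lowest induced levels in the double knockdown, while Prss22, on 2 to 12 reads a library, has its highest level there.

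Promoter sequences from RefSeq (build GRCm38.p6, 250 bases before to 50 after the start) matched 4 of the 7 members: Prss32, Tmprss2, Spint1 and Spint2. Those of Prss32, Spint1 and Spint2 are shown, because these genes rose together from unequal levels in fibroblasts. Capitals mark matches, on either strand, to CACCTG (the E-box bound by Zeb and Snail repressors, read as CAGGTG on the other strand), GGGNGTGG (a Klf motif) or GCCNNNGGC (an AP-2 motif). The windows are chr17:23853522-23853821 on the plus strand for Prss32, chr2:119237110-119237409 on the plus strand for Spint1 and chr7:29281928-29282227 on the minus strand for Spint2.
Prss32 promoter: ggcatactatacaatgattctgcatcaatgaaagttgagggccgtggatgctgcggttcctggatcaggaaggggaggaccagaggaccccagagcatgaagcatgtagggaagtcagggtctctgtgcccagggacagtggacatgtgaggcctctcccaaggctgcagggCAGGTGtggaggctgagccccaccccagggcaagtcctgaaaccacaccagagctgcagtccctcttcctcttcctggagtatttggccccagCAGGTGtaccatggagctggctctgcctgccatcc
Spint1 promoter: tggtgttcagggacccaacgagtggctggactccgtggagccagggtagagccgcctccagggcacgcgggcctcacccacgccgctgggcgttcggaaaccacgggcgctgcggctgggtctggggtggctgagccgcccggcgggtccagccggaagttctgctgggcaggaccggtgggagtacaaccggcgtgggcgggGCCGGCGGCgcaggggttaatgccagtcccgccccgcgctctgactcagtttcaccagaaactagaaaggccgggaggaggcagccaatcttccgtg
Spint2 promoter: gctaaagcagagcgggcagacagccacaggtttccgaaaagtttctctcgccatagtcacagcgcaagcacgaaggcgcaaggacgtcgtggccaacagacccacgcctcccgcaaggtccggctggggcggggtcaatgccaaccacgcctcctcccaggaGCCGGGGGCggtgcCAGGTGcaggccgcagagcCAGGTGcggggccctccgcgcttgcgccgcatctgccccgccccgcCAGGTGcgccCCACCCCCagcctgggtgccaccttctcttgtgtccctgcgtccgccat

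The Prss32 window held 2 CpG dinucleotides, the Spint1 window 28 and the Spint2 window 26, against a median of 7 over 32817 promoters of the same length. The E-box stood at -78 and 16 from the start in Prss32 and at -74, -55 and -9 in Spint2, and 20.2% of all promoters hold it. The AP-2 motif, in 16.6% of promoters, stood at -47 in Spint1 and -88 in Spint2, and the Klf motif, in 17.6%, at 2 in Spint2. A Grainyhead-like motif, AACNGGTT, is in 2.08% of promoters and in none of the 4 member windows. Tmprss2 had 13 CpG and no match to the motifs searched. The RefSeq start of Prss32 lies 9917 bases inside the gene as the count table places it, so its window need not be the start used in these cells. Matches are descriptions of the letters and not sites shown to be bound.

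Among induced cells, those with the Trim28 hairpin were set against those with the scrambled one. Spint1 fell and no other member was called in either direction; over all tested genes 13.1% rose and 11.8% fell. Spint1 stood at 33.0, 36.6 and 36.9 CPM with the hairpin against 39.6, 44.5 and 49.8 in induced controls, and the groups did not overlap. The difference was -0.33 ± 0.11 in log2 units (edgeR adjusted p = 0.0291), which is 1.26-fold lower. Leaving out control replicate 3 ended the call (adjusted p = 0.144), as did leaving out replicate 1, 2 or 3 of the Trim28 knockdown (0.11, 0.0606 and 0.052). Among the 7 epithelial markers 3 fell and 4 did not pass, with a median log2 change of -0.21, and of 8 fibroblast markers 2 rose and 4 fell. Of 4 tested pluripotent cell markers 3 fell, with a median of -1.55 (10.2 to 17.2 CPM summed), and of 2 tested macrophage markers 1 fell (9.07 to 11.4 CPM). Of 3 stratified epithelium markers 1 fell, and of 3 trophoblast markers 1 rose. Their part in the fall of Spint1 was not tested.

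St14 was at 148, 167 and 165 CPM with the Trim28 hairpin, inside the span of the induced controls. Its log2 change of 0.06 ± 0.090 did not pass the test (adjusted p = 0.689), and the 95% interval ran from -0.13 to 0.25. Spint2 stood at 83.6, 100.4 and 99.98 CPM (0.13 ± 0.10, adjusted p = 0.378, interval -0.08 to 0.35). Prss32, at 40.2, 45.0 and 48.5 CPM, had a log2 change of -0.01 ± 0.15 (adjusted p = 0.953, interval -0.33 to 0.30). For these 3 genes the libraries overlapped those of the controls. Prss8, with 46, 41 and 46 reads, had a wider interval of -0.78 to 0.29 around -0.24 (adjusted p = 0.535). Prss22 had 7, 8 and 3 reads (0.15 ± 0.45, adjusted p = 0.848), and Tmprss2 had 3, 5 and 4.

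Cells with both hairpins were next set against the induced controls. St14, Prss32, Spint1 and Spint2 fell, Prss8 did not pass the test and Prss22 rose; over all tested genes 18.1% rose and 18.5% fell. With both hairpins St14 stood at 81.2, 98.2 and 98.3 CPM, below every other induced library. It fell by 0.73 ± 0.092 in log2 units (± SE derived from the edgeR fit to all 12 libraries, adjusted p = 1.55e-05), 1.66-fold. Prss32 stood at 19.6, 29.7 and 31.0 CPM, again below every other induced library, with a log2 change of -0.75 ± 0.15 (adjusted p = 0.00146).

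The inhibitors differed in how far they fell. Spint1 was at 16.8, 21.8 and 22.3 CPM, a log2 change of -1.14 ± 0.11 (edgeR adjusted p = 8.98e-07) or 2.20-fold lower, the largest fall among the 6 tested members. Spint2 was at 56.0, 65.6 and 68.3 CPM, a log2 change of -0.45 ± 0.10 (adjusted p = 0.0028) or 1.37-fold lower. The 95% intervals of the log2 changes, -1.37 to -0.91 for Spint1 and -0.67 to -0.23 for Spint2, did not overlap. Neither inhibitor's double knockdown libraries overlapped the other induced libraries.

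Prss8 had 30, 34 and 47 reads, or 1.76, 1.84 and 2.74 CPM, and replicate 3 lay inside the range of the controls. Its log2 change of -0.58 ± 0.26 did not pass the test (adjusted p = 0.0928), and the interval of -1.13 to -0.03 includes the changes of St14 and Prss32. It was called without the low-count filter (adjusted p = 0.0411), without replicate 2 of the induced controls (0.0366) and without replicate 3 of the double knockdown (0.0472). Prss22 had 12 reads in each library, or 0.706, 0.650 and 0.701 CPM, above all other libraries. The log2 change was 1.06 ± 0.39 (adjusted p = 0.0417) on 36 against 16 reads, and the call was lost in 10 of 18 alternatives (adjusted p from 0.0353 to 0.167). Those included DESeq2 (0.167), the fit without the low-count filter (0.1), each double knockdown library left out in turn (0.0967, 0.071 and 0.0939) and replicate 2 or 3 of the controls left out (0.082 and 0.166). It was lost too without replicate 1 or 2 of the Trim28 knockdown (0.0523 and 0.0515) or replicate 1 of the uninduced cells (0.0521). Tmprss2 had 1 read in each library, a ratio to the controls of 0.157 on 3 against 18 reads with a 95% counting interval of 0.0296 to 0.537, and the fit without the filter called it lower (adjusted p = 0.0127).

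All 7 epithelial markers also fell in this comparison, with a median log2 change of -0.76, while 3 of 8 fibroblast markers rose and 2 fell. Pluripotent cell markers fell in 3 of 4 tested cases, with a median of -1.23 and a summed level of 7.35 to 14.6 CPM, and both tested macrophage markers fell (6.76 to 8.56 CPM). Of 3 tested markers each, 2 of stratified epithelium fell, and 1 of trophoblast rose and 1 fell. Among the members, St14 and Prss32 lay within their SE of the median of the epithelial markers, while Spint1 fell further and Spint2 less far. The part that the makeup of the cultures had in these falls was not tested.

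**Figure D3:**
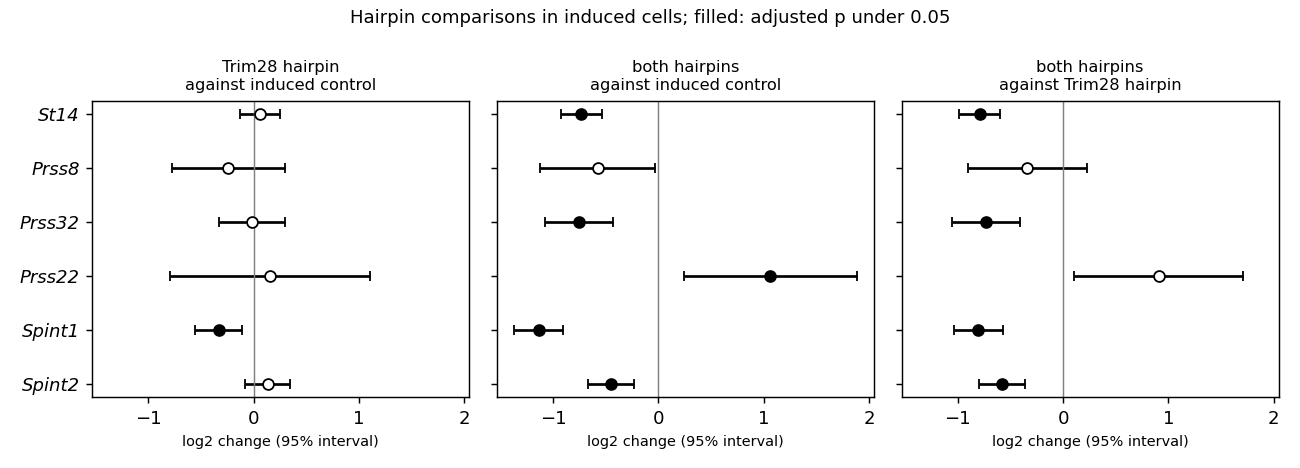
Log2 change of the 6 tested genes in the 3 comparisons among induced cells, with 95% intervals from the edgeR fit; filled points have an adjusted p under 0.05. Spint1 is the filled point of the first panel; in the other panels St14, Prss32, Spint1 and Spint2 are filled left of 0, and Prss22 is filled right of 0 in the middle panel.

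The comparison of both hairpins with the Trim28 hairpin alone tests the difference between the knockdowns directly. The same 4 members that fell against the controls fell here, and none rose. Over all tested genes 10% rose and 11.7% fell. Both comparisons share the double knockdown libraries, so these falls are not an independent repeat. The log2 changes were -0.79 ± 0.092 for St14 (edgeR adjusted p = 2.55e-05), -0.73 ± 0.15 for Prss32 (0.00333), -0.80 ± 0.11 for Spint1 (1e-04) and -0.58 ± 0.10 for Spint2 (0.000784). Prss8 had a log2 change of -0.34 ± 0.27 (adjusted p = 0.401, interval -0.90 to 0.22). Prss22 had 0.91 ± 0.38 (adjusted p = 0.099), and Tmprss2 had 3 against 12 reads. All 7 epithelial markers fell here too, by a median of 0.78 on the log2 scale, and 6 of 8 fibroblast markers rose. Of 4 pluripotent cell markers 1 rose and 1 fell, of 2 macrophage markers 1 fell, and of 3 markers each 1 of stratified epithelium and 1 of trophoblast fell. Trim28 transcript was also higher in the double knockdown than in the Trim28 knockdown, so the 2 groups differ by more than the Setdb1 hairpin's target.

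The ratio of inhibitor to matriptase transcript was read within each library, which leaves out the scaling between libraries. Spint1 per St14, both per kilobase, was 0.762, 0.860 and 0.789 in the induced controls and 0.615, 0.605 and 0.616 with the Trim28 hairpin. With both hairpins it was 0.572, 0.612 and 0.626. The control libraries lay above all others, and those of the knockdowns overlapped. Spint2 per St14 ran the other way, from 0.932, 0.936 and 0.953 in controls through 0.946, 1.01 and 1.02 to 1.16, 1.12 and 1.16 with both hairpins, and only the last group lay apart. Spint2 per Spint1 accordingly went from 1.09 to 1.22 in controls to 1.54 to 1.67 and 1.83 to 2.02, with no overlap between the 3 groups. The summed inhibitors per summed proteases, by contrast, overlapped across the induced groups, at 0.730 to 0.794, 0.701 to 0.733 and 0.725 to 0.806. Uninduced libraries had 0.162 to 0.207 for Spint1 per St14 and 3.39 to 5.28 for Spint2 per St14. These ratios carry no test, and their absolute size depends on the exon lengths used.

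**Figure D4:**
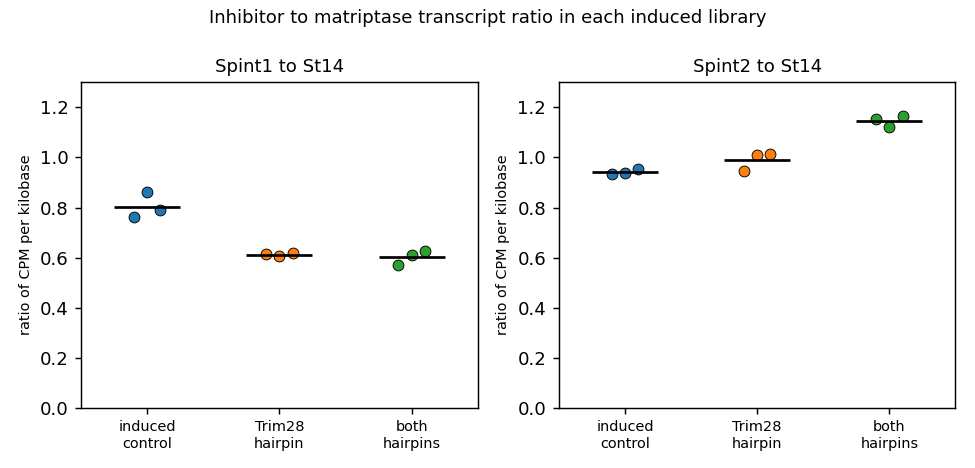
Ratio of Spint1 to St14 and of Spint2 to St14, each as CPM per kilobase, in the 9 induced libraries, with a point per library and a line for the mean of 3; both axes start at 0. Spint1 to St14 is highest in the induced controls (0.762 to 0.860), and Spint2 to St14 is highest with both hairpins (1.12 to 1.16).

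Other genes of the same system were read from 3 lists written from general knowledge. The first held 28 other epithelial or membrane-anchored serine proteases, of which 27 were in the table and 13 were tested. With induction, in which 32.7% of all tested genes rose and 32.7% fell, 12 rose, none fell and 1 (Hpn, the protease hepsin) did not pass. The median log2 change was 5.41, against -0.02 over all genes. For that median the 6 genes without uninduced reads were set against a floor of 3 reads. Of the 13 only Klk8, Klk10 and Hpn exceeded the filter level in every uninduced library, and the others passed only through induced libraries. The count of rises is therefore largely set by the filter and is given as a description. Without the filter 1 gene of the list was called lower. Kallikreins, which are secreted proteases of skin and other epithelia, made up much of the list. Klk10 went from 3.61 ± 0.354 to 154 ± 4.27 CPM and rose by 5.41 ± 0.089 (edgeR adjusted p = 9.44e-17). Klk14 rose by 7.11 ± 0.29 to 62.7 ± 10.6 CPM. Klk11 had 1 read in uninduced libraries and 1765 in induced controls. Tmprss5, the transmembrane protease spinesin, had 0 and 292, which is 92.6-fold above a floor of 3 reads (lower 95% counting bound 74.8-fold).

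With the Trim28 hairpin (13.1% of all tested genes rose, 11.8% fell) 8 of the 13 fell and 2 rose, with a median log2 change of -0.84. Klk14 fell to 19.7 ± 0.848 CPM (log2 -1.67 ± 0.17, edgeR adjusted p = 1.93e-06), and Klk7 and Klk13 fell by 2.53 ± 0.35 and 1.43 ± 0.21. Tmprss5 rose by 1.23 ± 0.12 to 13.9 ± 1.09 CPM, and Klk10 rose by 0.32 ± 0.062. With both hairpins (18.1% of all tested genes rose, 18.5% fell) 8 fell and 1 rose, with a median of -1.70. Klk14 was then at 7.79 ± 2.76 CPM (-3.01 ± 0.18, adjusted p = 6.7e-09), and Klk11, Klk8 and Klk13 had log2 changes of -1.74 ± 0.15, -1.33 ± 0.16 and -1.89 ± 0.22. The rise of Tmprss12 (1.11 ± 0.41, adjusted p = 0.0476) rested on a mean of 0.704 CPM and was lost in 15 of 18 alternatives, the replicate block among them (adjusted p = 0.0515). Klk6, Klk7 and Tmprss11d exceeded the filter level in all libraries of the induced controls and of no other group. The counts and medians of the falls against the controls are therefore partly set by the filter and are given as a description. Under the higher minimum count 5 of 7 tested genes fell with the Trim28 hairpin, and 5 of 7 with both hairpins. Against the Trim28 knockdown (10% of all tested genes rose, 11.7% fell) 6 fell and none rose, with a median of -0.51; Klk14, Tmprss5, Klk11 and Klk10 had changes of -1.34, -0.97, -0.91 and -0.31. Klk10, which stood at 155 ± 6.24 CPM with both hairpins, had a log2 change of 0.01 ± 0.062 against the controls (adjusted p = 0.919).

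**Figure D5:**
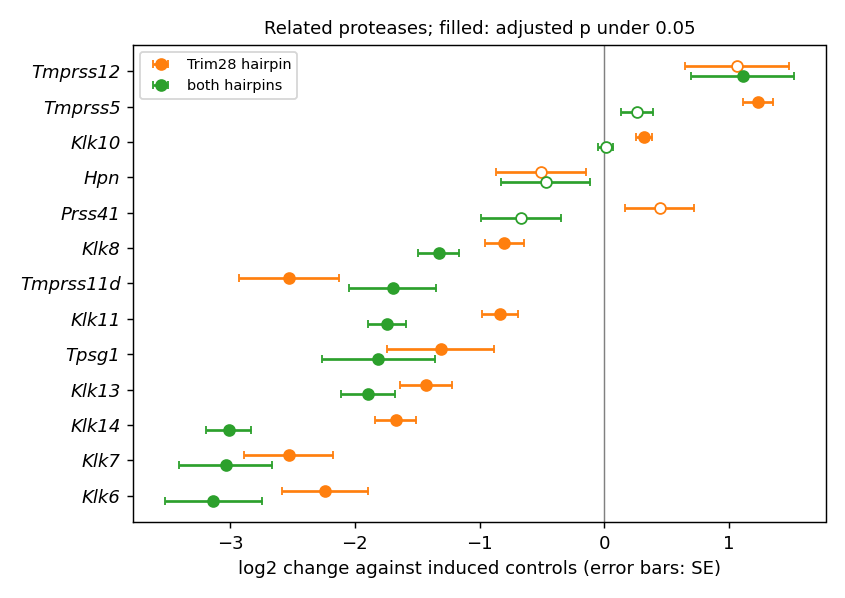
Log2 change (with SE) of the 13 tested related proteases against the induced controls, for the Trim28 hairpin and for both hairpins, which share those controls; filled points have an adjusted p under 0.05. Kallikreins Klk6, Klk7, Klk8, Klk11, Klk13 and Klk14 lie left of 0 in both, and Klk10 and Tmprss5 are the filled points right of 0 for the Trim28 hairpin.

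The second list held 16 substrates, receptors and partners of the matriptase system, all tested. With induction 12 rose and 3 fell, where 32.7% of all tested genes went each way, with a median log2 change of 3.58. Epcam, Cdcp1 and others of the list passed the filter only through induced libraries, so that count of rises is partly set by it. Epcam, an adhesion protein that matriptase can cut, rose by 9.79 ± 0.26 to 81.7 ± 12.7 CPM (edgeR adjusted p = 1.61e-14). Cdcp1, a surface substrate of serine proteases, rose by 7.58 ± 0.27, and F2rl1, the protease-activated receptor PAR2, by 4.21 ± 0.15. Epcam had 4 and Cdcp1 9 reads over the uninduced libraries. Their SEs, derived from the test statistic, understate the counting error at so few reads. Plau (urokinase), Hgf (hepatocyte growth factor) and Egfr fell, by 1.54 ± 0.071, 0.87 ± 0.18 and 0.38 ± 0.087.

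With the Trim28 hairpin 5 of the 16 fell and 2 rose, with a median log2 change of -0.27; of all tested genes 11.8% fell and 13.1% rose, so the 2 rises are near the share over all genes. Hgf, Egfr and Scnn1g (a subunit of the epithelial sodium channel) fell by 1.56 ± 0.23, 0.36 ± 0.088 and 1.37 ± 0.33, and Plau and Mst1 rose by 0.49 ± 0.072 and 0.61 ± 0.16. Without replicate 3 of the controls Scnn1g was no longer called (adjusted p = 0.0536). The count of falls ran from 2 to 9 over the alternatives and was 2 without replicate 3 of the induced controls, 9 without replicate 1 of them and 3 without any 1 of the Trim28 knockdown libraries. With both hairpins 11 fell and 1 rose, beside 18.5% and 18.1% of all tested genes, with a median of -0.81. F2rl1 fell from 39.9 ± 5.13 to 15.4 ± 1.54 CPM (-1.37 ± 0.11, edgeR adjusted p = 1.5e-07), and Cldn7 had a change of -1.24 ± 0.15. Plau was the gene that rose, by 1.08 ± 0.071 to 112 ± 6.88 CPM. Against the Trim28 knockdown, where 11.7% of all tested genes fell and 10% rose, 8 fell and 1 rose, among them F2rl1 (-1.16 ± 0.11) and Mst1r, the receptor of Mst1 (-0.95 ± 0.13), with Plau higher by 0.59 ± 0.070. The median there was -0.41.

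The third list held 12 other Kunitz, serpin and Kazal inhibitors, of which 11 were in the table and 7 were tested. With induction, in which Spint1 and Spint2 rose, all 7 fell, beside 32.7% of all tested genes, with a median log2 change of -1.34. Serpine2, App and Tfpi fell by 1.94 ± 0.11, 0.84 ± 0.069 and 1.36 ± 0.12. With the Trim28 hairpin 2 rose and none fell (13.1% and 11.8% of all tested genes), with a median of 0.12. Tfpi2 rose by 0.93 ± 0.30 (edgeR adjusted p = 0.0332). The call of Tfpi2 was lost with DESeq2 (adjusted p = 0.0577) and without replicate 1 or 3 of the controls (0.0994 and 0.0692) or replicate 2 or 3 of the Trim28 knockdown (0.0768 and 0.174). Aplp2 and Tfpi had changes of 0.12 ± 0.064 and 0.23 ± 0.13 that did not pass.

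With both hairpins 5 of these 7 inhibitors rose and none fell (18.1% and 18.5% of all tested genes), with a median of 0.28. Tfpi, App and Aplp2 rose by 0.63 ± 0.13, 0.28 ± 0.068 and 0.26 ± 0.064. Against the Trim28 knockdown 3 rose (10% of all tested genes did), among them Tfpi by 0.40 ± 0.12 and App by 0.21 ± 0.068, while Aplp2 (0.14 ± 0.064) did not pass. That count of 3 went to 0 without replicate 2 or 3 of the Trim28 knockdown or without replicate 1 or 3 of the double knockdown, and to 1 without replicate 1 of the Trim28 knockdown. App alone also lost its call with RLE factors (adjusted p = 0.056) and without replicate 2 of the uninduced cells (0.0529). The median was 0.16.

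Genes with the most similar course over the 12 libraries were sought among about as many candidates for each member (11140 or 11141). Candidates were tested genes with at least 5 CPM in their highest group, without predicted genes, clone names, pseudogenes and genes lacking a symbol. Likeness was the root mean square difference of centred log2 CPM. St14 was nearest to Cdh1, the gene of E-cadherin (0.0967), and then Rhpn2 (0.116). Prss32 was nearest to Epcam (0.189) and Esrp1, an epithelial splicing regulator (0.193). Spint1 was nearest to Trim61 (0.143) and Ripk4, a kinase of epidermal differentiation (0.154), and Spint2 to Slc7a3, an amino acid transporter (0.0965), and Zfp296 (0.117). Prss8, at larger differences, was nearest to Tmem125 (0.314) and Slc52a3, a riboflavin transporter (0.322).

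No member was the nearest gene of another. From St14, Spint1 ranked 121 and Spint2 282, and from Prss8, Spint2 ranked 22 and St14 315. From Prss32, Spint1 ranked 50. Prss22 stood apart, with Fblim1 (0.269) and Ptprn (0.325) nearest and the other 5 tested members ranked between 10711 and 11126 of 11141. It had only 80 reads over all libraries, so its course and these ranks are poorly determined. For the other tested members the change with induction was far larger than those with the hairpins. The ranks therefore mainly reflect the size of that rise, and Prss22 did not pass the test there.

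Neighbouring and overlapping genes limit some of these counts, because no source says that reads were counted by strand. Prss8 shares 122 exon bases with Kat8 on the opposite strand, which had 862, 1089, 983 and 992 reads in the uninduced, control, Trim28 and double groups, while Prss8 had 3, 158, 133 and 111. Prss32 shares 59 exon bases with Prss41 (17, 45, 62 and 30 reads) and 547 with the antisense gene Gm15947 (0, 1, 2 and 4 reads), against 0, 2263, 2226 and 1412 reads of its own.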

How the data were processed

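The authors deposited whole read counts of 24207 genes in 12 libraries. Per the submitters' processing notes, TopHat2 2.0.12, Bowtie 1.1 and HTSeq (version not stated) were used, and per the labels' protocols Trizol RNA went into TruSeq libraries. The genome build was not given in the sources used here; 23882 of the identifiers were found in a GRCm38 annotation, 23873 at an overlapping place. Coordinates are those of the deposited table, exon lengths and overlaps are from that annotation (GENCODE M21), and promoters are from RefSeq. No column was left unmapped.

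Groups and replicate numbers came from the sample titles. The counts went through edgeR 4.0.16 (R 4.3.3) with its quasi-likelihood test and TMM scaling (1 term per group over 12 libraries, low-count filter at 10 reads and a total of 15, 14520 genes, Benjamini-Hochberg over all of them, threshold 0.05), and the script was tested on simulated data. Alternatives were RLE factors, DESeq2 1.42.0, limma-voom (limma 3.58.1), no filter, a minimum count of 50, a replicate block, only the 6 libraries compared, and each library left out in turn. Same-numbered libraries deviated together among the induced groups, though the labels give no reason for a pairing. Their correlations were 0.310, 0.141 and 0.188 in the comparison of both hairpins with the induced controls. Values not named as alternatives come from the fit without the replicate block, and the block changed no call of a member. No 2 libraries were identical (chi-square per degree of freedom of 1.96 or more within groups).

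The members, the lists and the naming rule were chosen with earlier results of these data known. Named were all members, up to 4 list genes with the smallest p in each comparison with any called in the other direction, and the 2 genes most like each member. Some genes that the rule takes are counted but not reported here. Hpn was named after its values were seen, as were Klk6, Klk7, Klk8 and Klk10 where outside that rule. Protein features planned for the members were not analysed here. The applied motif search covered both strands of 300 bases.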

Additional observations from a re-analysis of the deposited data

How the results depend on the processing

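The 4 falls of St14, Prss32, Spint1 and Spint2 with both hairpins and against the Trim28 knockdown, and the 5 rises with induction, kept their direction and call in each of the alternatives that could be fitted. Among the refits of member changes 422 kept direction and side of the threshold, 14 lost a call, 3 gained one and 7 changed sign. All sign changes were among uncalled changes with the Trim28 hairpin with a library left out: in those refits St14 ran from -0.0019 to 0.15, Prss32 from -0.090 to 0.12 and Prss22 from -0.10 to 0.48 in log2 units. With a library left out, the number of members called with the Trim28 hairpin was 0 to 1. The number of all genes called against the Trim28 knockdown (3154) ran from 1829 to 3790 in those refits (1829 and 2063 without replicate 2 or 3 of the Trim28 knockdown, 1853 without replicate 1 of the double knockdown) and was 4849 with only the 6 libraries compared.

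With the replicate block 5, 1, 5 and 4 members were called, as without it, and 9572, 3864, 5537 and 3399 genes in all; the block ended no call of a member, and of the named list genes it ended that of Tmprss12 (adjusted p = 0.0515). Same-numbered libraries also correlated positively between the Trim28 knockdown and the controls (0.158, 0.0610 and 0.0955) and between the knockdowns (0.191, 0.0320 and 0.0927). Different-numbered libraries of those 2 comparisons ran from -0.168 to 0.0861. In the induction comparison same-numbered libraries correlated at 0.210, -0.224 and -0.187. The labels do not say whether a shared number is a pairing. Under a minimum count of 50 Prss8 and Prss22 could not be fitted. Depth limits Prss22 and Tmprss2, with 80 and 35 reads over all libraries, and Prss8, with 405.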

Other observations

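Prss32 and Prss22 lie on chromosome 17 in a row of trypsin-like protease genes, whose members differed in level. Next to Prss32, with 0 reads in uninduced cells and 2263 in induced controls, Prss41 had 17 and 45 reads, Prss33 had 0 and 1, and Prss21 had 0 in both groups. Prss27, beyond Prss22, had 4, 3, 5 and 12 reads in the uninduced, control, Trim28 and double groups, where Prss22 had 10, 16, 18 and 36. Farther along, Tpsg1 (tryptase gamma, a transmembrane tryptase) had 0, 215, 86 and 64 reads, while the mast cell tryptase genes Tpsab1 and Tpsb2 had at most 2 reads in any group. Within this row Prss32 and Tpsg1 were thus the genes with more than 100 reads in a group.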
